A study of Mus musculus with 10 samples.

Results

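Hematopoietic stem cells (HSCs) labelled stressed were compared with HSCs labelled normal, all of them of wild-type (WT, Id1+/+) genotype, gene by gene across the transcriptome. The comparison rests on 2 stressed libraries, A and B, and 3 normal libraries, A, B and C. A gene was kept when its deposited log2 CPM value (CPM being reads of a gene relative to all counted reads of its library, scaled alike in each) was above 0 in at least 2 of these 5 libraries, which left 14361 of the 20270 genes in the table. The same rule kept 14348 genes in the 5 libraries of Id1-/- (KO) label, and 15143 genes had such values in at least 2 of all 10 libraries. The genes just inside the rule included Ms4a7 and Ifitm5, whose second-highest WT value was 0.00426, and those just outside included Ptger1 and Kcnmb1, at -0.00477.

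All libraries came from bone marrow HSCs of the C57BL/6 strain, purified by flow cytometry from mice that had been transplanted with lineage-depleted (Lin-) marrow cells of the stated genotype. Every library, normal ones included, carries the label of 4 weeks after bone marrow transplantation, whereas the series design gives 6 weeks. The words normal and stressed, the conditioning of the recipients, the markers of the sort and the number of mice behind a library are not given in the sources used here. Nothing says that libraries came from separate animals, so the p-values speak only of the spread among the 10 libraries of the fit, which may be technical. In bulk RNA of this kind, fewer cells of a type and less RNA per cell cannot be told apart.

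HSCs sit at the top of the blood system and in the undisturbed marrow are mostly out of the cell cycle. Loss of marrow cells by transplantation, infection or bleeding calls them into division. Division needs the G1 and S phase program, which copies DNA and supplies nucleotides and histones, and then the G2 and M phase program, which condenses, aligns and separates chromosomes. A platelet-biased fraction of HSCs expresses megakaryocyte genes such as Vwf, Pf4 and Selp, and HSCs at rest depend on the cell cycle inhibitor p57, encoded by the imprinted gene Cdkn1c.

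The 5 WT libraries held an estimated 28400000 to 31600000 reads, so that a level of 1 CPM stood for 28 to 32 reads. The normal libraries were more alike than the stressed ones: log2 values correlated at 0.947 to 0.952 (Pearson's r across genes, which are not independent replicates) between normal libraries and at 0.922 between the stressed pair. Of the 20270 genes tabulated, 1342 to 1524 had no read in a normal library, 2198 in stressed A and 2007 in stressed B. Of the same genes, 373 were at 0 in 1 stressed library while above 1 CPM in the other. On the first principal component of the WT libraries (38.4% of the variance) the normal libraries lay between -42.1 and -36.1 and the stressed ones at 68.7 and 49.6. The next component (28.5%) separated stressed A, at 59.3, from stressed B, at -72.1. Id1, the gene deleted in the KO donors, stood at 1.35, 1.72 and 3.17 CPM in the WT normal and 1.28 and 4.39 CPM in the WT stressed libraries, with the groups overlapping (log2 difference 0.29, SE 0.50, adjusted p = 0.82). It stood higher, at 8.44 to 13.2 CPM, in the libraries labelled KO. Which part of the gene was deleted is not given in the sources used here, so these reads cannot check the label. These libraries are called KO-labelled throughout.

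Most genes of the HSC surface list were expressed. Of 27 in the table, 21 were above 25 CPM in all 5 WT libraries. Below 5 CPM in all 5 were 3 members, Thy1 (0.132 to 1 CPM), Gprc5c (0 to 2.68 CPM) and Cdh5 (0 to 0.383 CPM). Procr, which encodes the EPCR receptor of HSCs, was at 90.3 to 112 CPM in the 5 WT libraries, Slamf1, which encodes CD150, at 68.3 to 85.5 CPM, and Vwf at 220.0 to 281 CPM. Lists of other lineages held both genes near 0 and genes well above it. Below 5 CPM in all 5 libraries were 14 of 17 B and plasma cell genes in the table, 7 of 10 T and NK cell genes, 18 of 31 granulocyte and monocyte genes, 10 of 16 stromal and endothelial genes, 8 of 26 erythroid genes and 5 of 17 macrophage and dendritic cell genes. Above 25 CPM in all 5 were 2, 2, 6, 3, 8 and 4 genes of these lists, both limits being chosen after the levels were seen. Cd79a of B cells was at 0 to 1.89 CPM, Trbc2 of T cells at 0 to 0.286 CPM, Elane of granulocyte progenitors at 0 to 1.86 CPM and Cdh5 of endothelium at 0 to 0.383 CPM. At the other end were Car2, a carbonic anhydrase of the erythroid list, at 1420 to 1490 CPM, Apoe, of the macrophage list, at 629 to 696 CPM, Lyz2, a lysozyme of myeloid cells, at 247 to 320.0 CPM, Csf3r, the G-CSF receptor, at 110.0 to 155 CPM, Prtn3, a granule protease, at 83.6 to 91.8 CPM, and Cd79b, of the B cell list, at 35.6 to 44.9 CPM. The part of other cell types in the results was not tested.

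Between stressed and normal WT cells 510 genes (3.55% of those tested) were called at an adjusted p under 0.05 (limma, Benjamini-Hochberg over all 14361 genes). Of these, 240 (1.67%) were higher in stressed cells and 270 (1.88%) were lower. The median log2 difference, stressed minus normal throughout, was 0.70 over the genes called higher and -0.93 over those called lower, against 0.0098 over all genes tested, and 61 rises and 132 falls reached a difference of at least 1. Of the called genes, 33 that fell and 1 that rose had passed the filter through the group where they were high and through no library of the other, which fixes their direction. Without these, a choice made after the data were seen, the medians were 0.70 over 239 rises and -0.78 over 237 falls, and 60 and 99 reached that size. The 2 groups did not overlap for any called gene, but they also did not overlap for 37.2% of all genes tested. Among the called genes 146 stayed called whichever of the 5 WT libraries was left out, 72 of them higher and 74 lower. Without stressed A, 99 genes were called higher and 202 lower, and without stressed B, 107 and 240.

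The 50 gene lists used below are described by how many members were called and by the median difference of their members, to be read against the 1.67% of all genes called higher, the 1.88% called lower and the median of all genes. Whether a list differs from other genes was not tested.

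**Figure D1:**
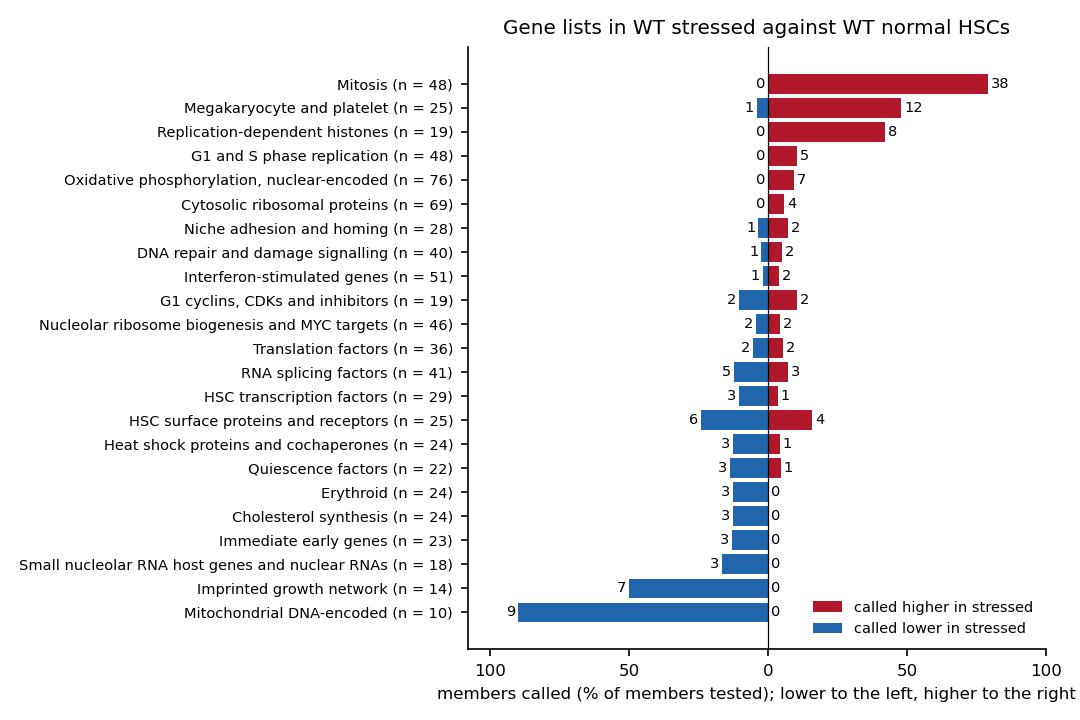
Share of tested members called higher (red, right) or lower (blue, left) in WT stressed against WT normal cells, in percent, for every list with at least 3 called members; numbers at the bars are genes and n is the number of members tested. The mitosis list has 38 of 48 members called higher and the mitochondrial DNA-encoded list 9 of 10 called lower, while 1.67% and 1.88% of all genes were called in those directions.

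Genes of mitosis rose together in stressed cells. Of the 48 members tested, 38 were called higher and none lower, with a median difference of 0.91, and for all 48 both stressed libraries lay above all 3 normal ones, as they did for 20.1% of all genes tested. The remaining 10, Incenp, Smc2, Bub1, Foxm1, Ncapd2, Melk, Ttk, Kif2c, Ect2 and Kif23, had differences from 0.24 to 1.11. Summed over the list, levels were 2435 to 2469 CPM in the normal and 4360 to 4429 CPM in the stressed libraries. Of the 38 calls, 22 held whichever WT library was left out, and 28 and 27 members were called without stressed A and without stressed B.

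The core promoters of these genes carry known letters, and 6 of them are shown because they are the mitosis genes of smallest p that hold both kinds of match within the stretch printed; Spc25 and Hmmr, of similar p, have their CHR match further downstream than that stretch reaches. Genes of the G2 and M phases are known targets of the DREAM and MuvB complexes, which bind the cell cycle homology region (CHR), and of NF-Y, which binds CCAAT boxes. Each line runs 5′ to 3′ on the gene's own strand from 100 bases before to 10 bases after the RefSeq start site (GRCm38.p6). Capitals mark CHR letters (TTTGAA or TTTAAA, from 50 bases before to 50 after the start) and CCAAT (from 100 bases before the start up to it), read on either strand, so that TTCAAA and ATTGG are the same motifs on the other strand. Matches outside those windows are left in lower case. Prc1 lies at chr7:80294351-80294460, plus strand. Top2a lies at chr11:99024180-99024289, minus strand. The window of Ube2c is chr2:164769829-164769938, plus strand. The window of Plk1 is chr7:122159335-122159444, plus strand. Cdc20 is read from chr4:118437334-118437443, minus strand. Cdk1 is read from chr10:69352903-69353012, minus strand.
Prc1: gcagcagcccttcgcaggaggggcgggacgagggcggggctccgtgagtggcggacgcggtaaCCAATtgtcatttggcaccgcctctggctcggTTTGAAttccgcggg
Top2a: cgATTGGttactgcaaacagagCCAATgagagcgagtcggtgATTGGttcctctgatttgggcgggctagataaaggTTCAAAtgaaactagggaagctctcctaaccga
Ube2c: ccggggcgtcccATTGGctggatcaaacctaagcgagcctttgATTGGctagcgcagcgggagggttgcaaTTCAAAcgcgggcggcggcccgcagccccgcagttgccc
Plk1: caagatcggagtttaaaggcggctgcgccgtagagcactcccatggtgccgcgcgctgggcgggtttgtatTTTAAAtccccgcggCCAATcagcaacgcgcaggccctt
Cdc20: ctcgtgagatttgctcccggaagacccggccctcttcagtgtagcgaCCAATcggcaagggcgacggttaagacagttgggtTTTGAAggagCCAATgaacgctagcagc
Cdk1: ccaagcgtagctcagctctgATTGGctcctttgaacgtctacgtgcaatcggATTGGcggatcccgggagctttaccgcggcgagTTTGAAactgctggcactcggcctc

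In the 6 printed windows the marked CHR match began between position -29 (Ube2c and Plk1) and position -5 (Prc1) relative to the start. The windows were chosen to hold a CHR match within the printed stretch, so a position near the start was largely set by that choice. Among the 38 mitosis genes with a RefSeq window, 27 (71.1%) held a CHR match, 65.8% held CCAAT and 57.9% held both. Over the 10081 tested genes with a window the shares were 4.74%, 23.2% and 1.35%, and over all 27025 windows 8.24%, 19.6% and 1.69%. An E2F motif (TTTCCCGC, TTTGGCGC or TTTCGCGC, from 100 bases before to 50 after the start, either strand, no overlap with the other motifs counted against it) was found in 5.26% of the mitosis windows, 30.0% of the 40 windows of G1 and S phase genes and 2.0% of all tested. Among the 151 windows of genes called higher outside the mitosis list, 17.9% held CHR and 11.3% held both motifs. The shares were 2.05% and 0.513% of the 195 windows of genes called lower. Genes called higher outside the list include further genes of cell division, such as Cep55, Nek2, Aspm and Dlgap5. The part of such genes in the shares was not tested. All shares are counts of letters, not of bound sites, and the motifs were chosen after the rise of the mitosis list was known.

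**Figure D2:**
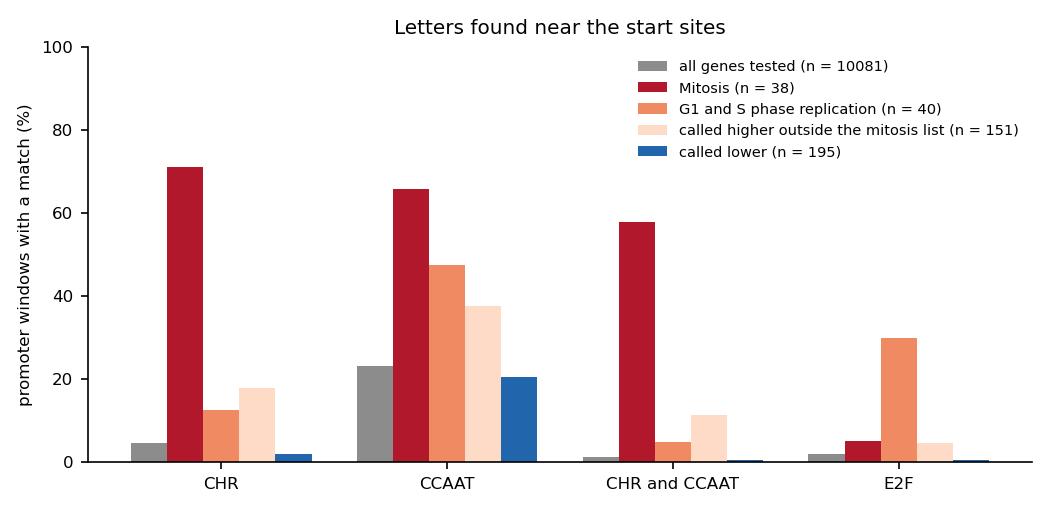
Percent of promoter windows that hold CHR, CCAAT, CHR and CCAAT together, or E2F letters, for all tested genes (grey), the mitosis list (dark red), the G1 and S phase list (orange), genes called higher outside the mitosis list (pale) and genes called lower (blue); n is the number of windows. CHR letters were in 71.1% of mitosis windows and 4.74% of all windows of tested genes.

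Among the 6 genes with printed windows, Prc1, which bundles the microtubules of the central spindle, stood at 34.3, 44.7 and 41.1 CPM in normal and 100.05 and 108 CPM in stressed cells (log2 difference 1.38, SE 0.14, adjusted p = 0.00026). Top2a, the topoisomerase that untangles sister DNA, stood at 189, 172 and 175 CPM in normal and 328 and 346 CPM in stressed cells (log2 difference 0.92, SE 0.098, adjusted p = 0.00043). In both genes each stressed library exceeded each normal library by more than the spread within either group. Ube2c, a ubiquitin-conjugating enzyme of the anaphase-promoting complex, stood at 21.6, 19.5 and 16.2 CPM in normal and 50.2 and 59.3 CPM in stressed cells (log2 difference 1.52, SE 0.17, adjusted p = 0.00048). Plk1, a kinase that drives entry into mitosis, stood at 21.9, 16.1 and 24.8 CPM in normal and 64.6 and 61.8 CPM in stressed cells, the largest difference among the called members of the list (log2 difference 1.62, SE 0.20, adjusted p = 0.0011). All 4 of these genes changed by between 1.89-fold and 3.07-fold. Cdc20, the activator of the anaphase-promoting complex, stood at 65.1, 64.8 and 71.1 CPM in normal and 125 and 130.01 CPM in stressed cells (log2 difference 0.93, SE 0.12, adjusted p = 0.0015). Cdk1, the kinase at the centre of mitotic entry, stood at 44.8, 53 and 54.8 CPM in normal and 92.5 and 96.7 CPM in stressed cells (log2 difference 0.90, SE 0.12, adjusted p = 0.0016). The 6 genes kept their call in each fit that left out 1 WT library.

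The other mitosis genes spanned the spindle, the kinetochore and cytokinesis. Birc5 (survivin) stood at 25.2, 30.9 and 27 CPM in normal and 65.6 and 68.4 CPM in stressed cells, and its partner in the chromosomal passenger complex, the kinase Aurkb, at 36.8, 39.8 and 41.8 CPM in normal and 84.8 and 93.6 CPM in stressed cells. Both had stressed values above every normal value (differences 1.28 and 1.18, adjusted p = 0.00048 and 0.00074). The kinetochore genes Spc25, Nuf2, Spc24 and Ndc80 rose by 1.33, 1.06, 0.90 and 1.19, and the kinesin motors Kif20a, Kif11 and Kif4 by 1.06, 1.05 and 1.15. The B-type cyclins Ccnb1 and Ccnb2 rose by 0.74 and 0.75 and cyclin A2 (Ccna2) by 0.86. Mki67, the proliferation marker Ki-67, stood at 171, 147 and 153 CPM in normal and 281 and 252 CPM in stressed cells (log2 difference 0.76, SE 0.12, adjusted p = 0.0051). Its 2 stressed values were higher than all normal ones, and its call was lost without stressed A (adjusted p = 0.057). Ndc80, Kif4, Ccna2 and Ccnb1 kept the call in 3, 4, 4 and 2 of the 5 fits that left out a WT library. Outside the list, and chosen after their values were seen, were Hmgb2, a chromatin protein abundant in dividing cells (329.9, 319 and 317 CPM in normal and 550.1 and 544 CPM in stressed cells, log2 difference 0.76, SE 0.053, adjusted p = 1.4e-05), and Stmn1, a microtubule regulator (580.5, 568 and 586 CPM in normal and 828 and 848 CPM in stressed cells, log2 difference 0.54, SE 0.044, adjusted p = 5e-05).

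In the G1 and S phase list fewer members were called. Of its 48 members, 5 (10.4%) were called higher (1.67% of all genes were) and none lower, with a median difference of 0.27, and 44 differences were above 0. Those called were Rrm1 and Rrm2, the subunits of ribonucleotide reductase, Tk1, a thymidine kinase, Lig1, the ligase that joins Okazaki fragments, and Rfc2, a subunit of the clamp loader. Tk1 stood at 43.7, 48.6 and 58.1 CPM in normal and 96.7 and 97.9 CPM in stressed cells (log2 difference 0.97, SE 0.15, adjusted p = 0.0037), and Rrm2 at 73.2, 71.9 and 83.6 CPM in normal and 123 and 147 CPM in stressed cells (log2 difference 0.83, SE 0.11, adjusted p = 0.0019). Neither gene's groups overlapped. No subunit of the replicative helicase was called: Mcm2, Mcm3, Mcm4, Mcm5, Mcm6 and Mcm7 had differences of -0.082, -0.036, 0.036, 0.11, 0.089 and 0.21. Pcna, the sliding clamp, differed by 0.33 (adjusted p = 0.088), and the initiation factors Cdt1 and Cdc6 by 0.00 and 0.22. Lig1 kept its call in none and Rfc2 in 3 of the 5 fits that left out a WT library (adjusted p up to 0.19 and 0.06), whereas Rrm1, Rrm2 and Tk1 kept it in every such fit.

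Replication-dependent histone genes, whose messages are made in S phase and mostly lack a poly(A) tail, were also higher. Of 19 members tested, 8 (42.1%) were called higher and none lower, with a median difference of 1.16, and all 19 differences were above 0. Of the members not called, Hist1h3c had passed the filter through the stressed group alone, and the median was also 1.16 over the other 18. The list summed to 232.8 to 248.4 CPM in the normal and 396.6 to 403.9 CPM in the stressed libraries. Linker histone H1.5 (Hist1h1b) stood at 12.3, 13.1 and 11.1 CPM in normal and 36.2 and 30.7 CPM in stressed cells (log2 difference 1.46, SE 0.18, adjusted p = 0.0013). Hist1h2ae stood at 18.5, 20.4 and 19.6 CPM in normal and 39.2 and 36.3 CPM in stressed cells (log2 difference 0.95, SE 0.14, adjusted p = 0.0033). Stressed values of both genes were above all normal values. Hist1h1a, one of the largest rises in the transcriptome, went from 1.73, 3.28 and 1.82 CPM to 10.1 and 6.26 CPM (log2 difference 1.87, SE 0.38, adjusted p = 0.02). Only Hist1h1b, Hist1h2ae and Hist1h4d kept the call in all 5 fits that left out a WT library; Hist1h1a kept it in 2 of them (adjusted p up to 0.17). These genes lie in clusters of near-identical copies, so reads may have been split between them, and the selection of RNA for the libraries is not given in the sources used here.

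**Figure D3:**
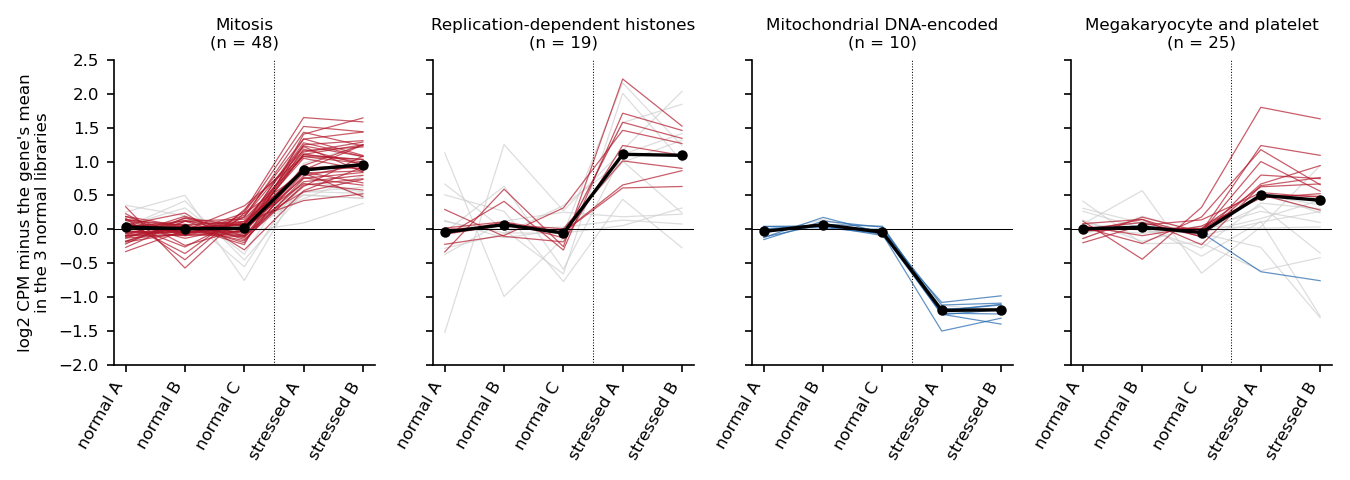
Values of each tested member of 4 lists in the 5 WT libraries, as log2 CPM minus the gene's mean in the 3 normal libraries (y axis); coloured lines are genes called higher (red) or lower (blue), grey lines genes not called, and black points the list median. Lines join the values of a gene and imply no order of libraries. The median lay at 0.88 and 0.95 in stressed A and B for mitosis, 1.11 and 1.09 for histones, -1.20 and -1.19 for mitochondrial DNA-encoded genes, and 0.50 and 0.43 for megakaryocyte and platelet genes.

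Regulators of G1 did not move in a common direction. Of 19 cyclins, kinases and inhibitors tested, 2 (10.5%) were called higher and 2 lower, and the median difference was 0.088. Cdkn1c, which encodes the quiescence inhibitor p57, fell from 26.3, 30.3 and 33.4 CPM to 14.2 and 14.9 CPM (log2 difference -1.04, SE 0.17, adjusted p = 0.0065). Cdkn2c, which encodes the CDK4 and CDK6 inhibitor p18, rose from 6.58, 12.5 and 11.3 CPM to 27.1 and 29.3 CPM (log2 difference 1.53, SE 0.27, adjusted p = 0.009). These inhibitors thus moved in opposite directions, each with groups that did not overlap; the call of Cdkn2c was lost without stressed A or stressed B (adjusted p up to 0.064). The pocket proteins also split, Rbl2 (p130, prominent in resting cells) falling by 0.42 and Rbl1 (p107) rising by 0.50. Both of the latter calls were lost without any 1 of the WT libraries, with adjusted p up to 0.12 and 0.24. The D cyclins Ccnd1, Ccnd2 and Ccnd3 differed by -0.082, -0.21 and -0.033, and the kinases Cdk4 and Cdk6 by 0.08 and 0.088, none of them called.

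Messages encoded by mitochondrial DNA fell together. Of the 10 members tested, 9 were called lower (1.88% of all genes were), with a median difference of -1.17, and for all 10 both stressed libraries lay below every normal library, as for 17.0% of all genes. The list summed to 7959 to 8415 CPM in the normal and 3585 to 3666 CPM in the stressed libraries. mt-Co1, a core subunit of cytochrome oxidase, stood at 2443, 2613 and 2443 CPM in normal and 1058 and 1049.5 CPM in stressed cells (log2 difference -1.25, SE 0.032, adjusted p = 1.8e-09). mt-Nd5, a subunit of complex I, stood at 978, 1034 and 988 CPM in normal and 417 and 439 CPM in stressed cells (log2 difference -1.22, SE 0.053, adjusted p = 2.1e-07). Values within each group were close together, and the distance between groups was 2.37-fold and 2.34-fold. mt-Nd6, the member transcribed from the other strand, stood at 76.9, 94.5 and 80.6 CPM in normal and 37.2 and 36.7 CPM in stressed cells (log2 difference -1.18, SE 0.13, adjusted p = 0.00058). mt-Cytb, which encodes cytochrome b, had the value of 2848 CPM in all 3 normal libraries, because quantile normalization ties genes that hold the same rank; the spread of such abundant genes, and with it their SE, is understated. mt-Co2 was not called (difference -1.17, adjusted p = 0.11), and mt-Atp6 lost its call whichever WT library was left out (adjusted p up to 0.16), while the other 8 kept theirs in every fit that left out a WT library. Reads of nuclear copies of mitochondrial DNA cannot be told apart from these.

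Among nuclear genes of the same respiratory complexes none was called lower. Of 76 tested, 7 (9.21%) were called higher, 74 differences were above 0, and the median difference was 0.22. Atp5b, a catalytic subunit of ATP synthase, stood at 1372, 1276 and 1276 CPM in normal and 1721 and 1489 CPM in stressed cells (log2 difference 0.29, SE 0.053, adjusted p = 0.011), and Cox6b1, a subunit of cytochrome oxidase, at 147, 149 and 147 CPM in normal and 185 and 194 CPM in stressed cells (log2 difference 0.36, SE 0.069, adjusted p = 0.015). Stressed values of both genes were above all normal values. Cytosolic ribosomal proteins behaved likewise, with 4 of 69 (5.8%) called higher, none lower and a median of 0.14; Rpl41 (0.26) and Rps25 (0.24) had the smallest p. None of these 11 calls held in all 5 fits that left out a WT library, the highest adjusted p being 0.28 for Cox6a1. Gene length moved with these differences: in 5 equal bins of genes from the shortest to the longest exon length the median WT difference went 0.145, 0.046, 0, -0.035 and -0.071, and over the same bins the KO-labelled difference stayed between -0.010 and 0.0060. With the trend over length removed from each library (an alternative chosen after the data were seen), 2 respiratory genes and no ribosomal protein gene were called and the medians were 0.11 and 0.032, whereas the mitosis median was 0.91 with 36 called and the mitochondrial DNA-encoded median -1.34 with 9 called. Genes called higher had a median exon length of 3296 bases and those called lower 5355, against 4093 over genes tested; the part of length in these results was not otherwise tested.

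Glycolysis, the TCA cycle and fatty acid oxidation held 3 calls. Of 32 glycolysis genes 2 (6.25%) were called higher, Gapdh (1014, 1026 and 1026 CPM in normal and 1258 and 1161 CPM in stressed cells, difference 0.24) and Ldha, the lactate dehydrogenase (0.17); of 19 TCA genes none was called, and of 21 fatty acid oxidation genes 1 (4.76%), Etfb, an electron carrier of that pathway (0.54). None of these calls held in every fit that left out a WT library (highest adjusted p = 0.063, 0.26 and 0.21). Cholesterol synthesis leaned the other way. Of 24 genes, 3 (12.5%) were called lower and none higher, 19 differences were below 0, and the median was -0.35. Among those called, the sterol synthesis enzymes Msmo1 and Cyp51 fell by 0.59 and 0.57. Each kept its call in 2 of the 5 fits that left out a WT library (highest adjusted p = 0.14 and 0.2).

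Transcription factors of HSC identity were called in both directions. Of 29 tested, 3 (10.3%) were called lower and 1 (3.45%) higher, 21 differences were below 0, and the median was -0.12. Hlf, a factor that maintains the HSC program, stood at 479, 492 and 470.4 CPM in normal and 322 and 338 CPM in stressed cells (log2 difference -0.54, SE 0.066, adjusted p = 0.0011). Its stressed values were below all normal values, and its call held in every fit that left out a WT library. Mecom (Evi1), needed for HSC self-renewal, stood at 255, 275 and 287 CPM in normal and 184 and 226 CPM in stressed cells (log2 difference -0.41, SE 0.092, adjusted p = 0.03), and Lmo2, a bridging protein of the same network, fell by 0.18. Gfi1b, a repressor that acts in HSCs and in erythroid and megakaryocyte cells, rose from 178, 179 and 169.6 CPM to 224 and 212 CPM (log2 difference 0.31, SE 0.067, adjusted p = 0.027). The calls of Gfi1b and Lmo2 were lost in all 5 fits that left out a WT library (adjusted p up to 0.18 and 0.19) and that of Mecom in 3 of them (up to 0.24). Gata2, Meis1, Runx1, Hoxa9 and Prdm16 differed by -0.11, -0.11, 0.038, -0.039 and -0.31, none of them called.

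Surface proteins and receptors of HSCs changed in both directions, with 6 of 25 (24.0%) called lower and 4 (16%) higher. Ifitm1, an interferon-induced membrane protein present in HSCs, stood at 430.3, 424 and 416 CPM in normal and 278 and 268 CPM in stressed cells (log2 difference -0.63, SE 0.051, adjusted p = 4.9e-05). It fell with no overlap of the groups. Eng (endoglin), a co-receptor of the TGF-beta family, stood at 233, 229 and 221 CPM in normal and 164 and 156 CPM in stressed cells (log2 difference -0.51, SE 0.079, adjusted p = 0.0044), and Pdzk1ip1, a membrane-associated protein, at 199, 207 and 207 CPM in normal and 148 and 137 CPM in stressed cells (log2 difference -0.52, SE 0.078, adjusted p = 0.0037). Adgrg1 (GPR56), an adhesion receptor, was higher (log2 difference 0.45, SE 0.07, adjusted p = 0.0044). It stood at 4492, 3687 and 3687 CPM in normal and 5375 and 5375 CPM in stressed cells, tied values that understate its error. These 4 genes, and Itga2b below, kept their call in every fit that left out a WT library. Kit, the receptor of stem cell factor, fell by 0.26 and Sult1a1, a sulfotransferase, by 0.92, while Cd34 rose by 0.32 and Cd9, a tetraspanin, by 0.40; these 4 calls held in 2, 1, 4 and 1 of the 5 fits (adjusted p up to 0.17, 0.2, 0.083 and 0.2). The list members Procr, Slamf1, Ly6a (Sca-1) and Flt3 differed by -0.18, 0.14, -0.22 and 0.24, and Cd48, found on more committed progenitors, by 0.72 (adjusted p = 0.059), none of them called. Which of these genes, if any, served in the sort is not given in the sources used here.

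**Figure D4:**
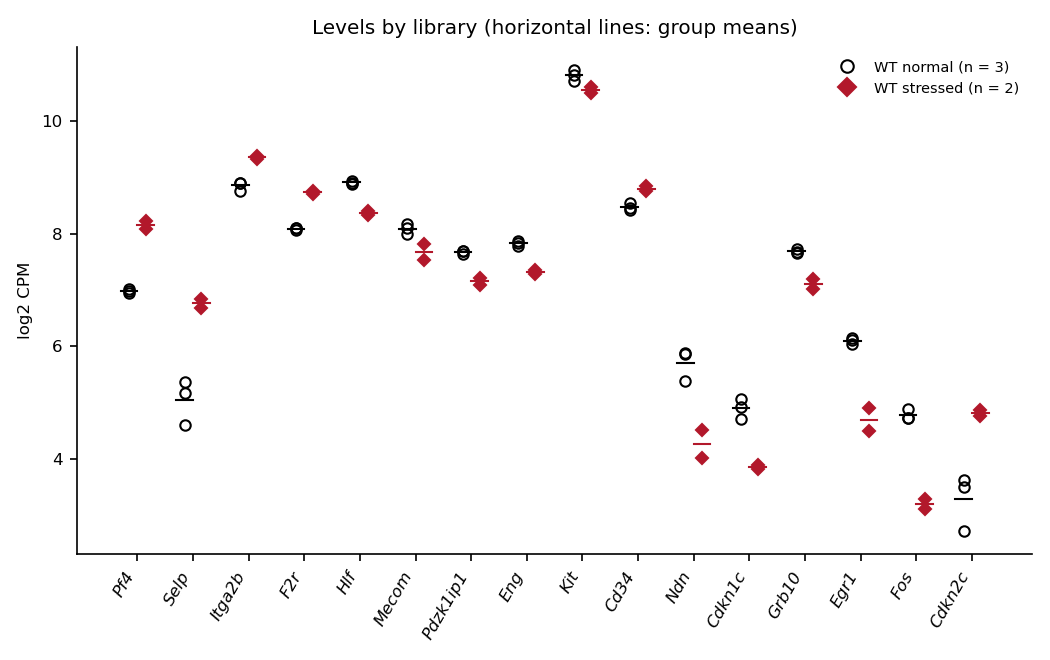
Log2 CPM of 16 genes named in the text in each WT library, as open circles for the 3 normal and red diamonds for the 2 stressed libraries, with horizontal lines at the group means. In every gene shown the 2 groups do not overlap; Pf4 and Selp lie higher and Hlf, Ndn and Egr1 lower in stressed cells.

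Megakaryocyte and platelet genes rose as a group. Of 25 tested, 12 (48.0%) were called higher and 1 lower, with a median of 0.43, and the list summed to 3928 to 3995 CPM in the normal and 4559 to 4662 CPM in the stressed libraries. Pf4, a chemokine stored in platelet granules, stood at 129, 127 and 124 CPM in normal and 299 and 270.1 CPM in stressed cells (log2 difference 1.16, SE 0.075, adjusted p = 7.4e-06). Selp (P-selectin) stood at 35.9, 24.3 and 41.3 CPM in normal and 115 and 102 CPM in stressed cells (log2 difference 1.71, SE 0.24, adjusted p = 0.0027). The increases were 2.24-fold and 3.28-fold, and no stressed value reached down to a normal one. Itga2b (CD41), the platelet integrin, stood at 480.03, 434 and 479 CPM in normal and 638 and 668 CPM in stressed cells (log2 difference 0.49, SE 0.063, adjusted p = 0.0015), and F2r, the thrombin receptor PAR1, at 266, 274 and 273 CPM in normal and 418 and 431 CPM in stressed cells (log2 difference 0.65, SE 0.059, adjusted p = 0.00012). Fyb, Slc14a1, Gp5, F2rl2, Gp1bb, Gp1ba, Plek and Cd9 also rose, by 0.49 to 0.92 apart from Cd9 (0.40). Vwf, Itgb3 and Gp9 differed by 0.18, 0.34 and 0.18 without a call. Levels of platelet genes spanned a wide range. Ppbp was at 2.08 to 6.26 CPM and Tubb1 at 1.66 to 5.01 CPM in the WT libraries, with overlapping groups. Treml1 was at 17.6 to 24.7 CPM and Gp9 at 47.7 to 59.1 CPM. Of 26 members in the table, 15 were above 25 CPM in all 5 WT libraries. Pf4, F2r, Slc14a1, Itga2b, Selp and Fyb kept their call whichever WT library was left out; 6 members were called higher without stressed A.

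Members of the imprinted growth network fell in stressed cells. Of 14 tested, 6 had passed the filter through the normal group alone, which fixes their direction, 3 of them called lower. Of the other 8, 4 were called lower (Ndn, Grb10, Igf2r and Cdkn1c) and none higher, with a median difference of -0.67. The list, its untested members included, summed to 449.3 to 496.1 CPM in the normal and 288.5 to 291.5 CPM in the stressed libraries. Ndn (necdin), a growth suppressor of resting HSCs, stood at 58.9, 58.3 and 41.7 CPM in normal and 23 and 16.1 CPM in stressed cells (log2 difference -1.44, SE 0.19, adjusted p = 0.0016). Grb10, an adaptor that dampens insulin and IGF signalling, stood at 203, 211 and 203 CPM in normal and 129 and 147 CPM in stressed cells (log2 difference -0.58, SE 0.084, adjusted p = 0.003). Igf2r, the receptor that clears IGF2, stood at 41.7, 59.98 and 63.3 CPM in normal and 20.4 and 11.1 CPM in stressed cells (log2 difference -1.85, SE 0.29, adjusted p = 0.0045). In these 3 genes and in Cdkn1c the lowest normal value exceeded the highest stressed one. The 3 called members that had passed through the normal group alone were of low level in normal cells. Igf2, the growth factor itself, stood there at 4.04, 3.35 and 2.41 CPM. Meg3, a noncoding RNA of the Dlk1 locus, stood at 8.57, 7.86 and 6.9 CPM, and Peg3, a zinc finger gene, at 1.83, 2.75 and 2.41 CPM. In the stressed libraries Igf2 and Peg3 had 0 reads in both and Meg3 0 reads in A and 0.132 CPM in B. The calls of Ndn, Grb10, Igf2r and Cdkn1c held whichever normal WT library was left out. So did the other 3 calls, but as the filter had fixed their direction this adds no support. Sgce and Gnas had the differences above 0, at 0.22 and 0.33, not called.

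Quiescence factors, p57 and necdin included, gave a mixed picture. Of 22 tested, 3 (13.6%) were called lower, Egr1, Ndn and Cdkn1c, and 1 higher, Cdkn2c. Each of these called genes is also counted in another list here. Foxo3, Foxo1 and Txnip differed by -0.29, -0.46 and -0.049, none of them called.

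Immediate early genes, which cells switch on within minutes of a stimulus, were called in 1 direction. Of 23 tested, 3 (13.0%) were called lower and none higher, with a median of -0.15. Egr1, a zinc finger factor also linked to HSC dormancy, stood at 71.3, 69 and 65.6 CPM in normal and 22.6 and 30.01 CPM in stressed cells (log2 difference -1.4, SE 0.14, adjusted p = 0.00025). Fos, a subunit of the AP-1 factor, stood at 26.6, 29.5 and 26.5 CPM in normal and 8.63 and 9.75 CPM in stressed cells (log2 difference -1.58, SE 0.22, adjusted p = 0.0026). Both stressed values of each gene were less than every normal value. Junb fell by 0.59, a call lost whichever WT library was left out (adjusted p up to 0.12), while Jun and Myc differed by 0.30 and 0.0081. Heat shock genes showed the same direction for the inducible HSP70 pair. Hspa1a stood at 3.86, 5.42 and 5.77 CPM in normal and 0.97 and 1.18 CPM in stressed cells (log2 difference -2.21, SE 0.32, adjusted p = 0.0033) and Hspa1b at 23.3, 18.9 and 23.8 CPM in normal and 12.9 and 6.7 CPM in stressed cells (log2 difference -1.23, SE 0.27, adjusted p = 0.028). These near-identical copies share reads, and the call of Hspa1b held in 1 of the 5 fits that left out a WT library (adjusted p up to 0.19). Of 24 heat shock genes, Fkbp4 was the other one called lower and Hsp90ab1 the 1 called higher (0.12), both calls lost in all 5 such fits, and the median was -0.044.

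Lists of cellular stress held 0 to 3 called genes each, to be read against the 3.55% of all genes that were called. None of 23 endoplasmic reticulum chaperone and unfolded protein response genes was called by limma (median -0.028). A list of this size may hold no called gene at the share over all genes. Hspa5, the chaperone BiP, stood at 760.1, 764 and 751 CPM in normal and 692 and 703 CPM in stressed cells (log2 difference -0.12, SE 0.04, adjusted p = 0.13). Of 25 genes of the ATF4 response, Chac1, an enzyme that degrades glutathione, was the 1 called, at 1.15, 2.58 and 0.72 CPM in the normal libraries and 0 reads in both stressed ones; it had passed the filter through the normal group alone, which fixes its direction, and none of the 23 members that had not passed through 1 group alone was called. Of 28 p53 targets 1 (3.57%), Plk2, a kinase of the polo family, was called lower (15.3, 17.3 and 17 CPM in normal and 3.58 and 4.41 CPM in stressed cells, log2 difference -2.05, SE 0.23, adjusted p = 0.00058); Cdkn1a (p21) differed by 1.03 with a wide error (SE 0.48, adjusted p = 0.3). Of 32 antioxidant genes, 2 (6.25%) were called higher: Txn1 (thioredoxin) and Gpx1 (a glutathione peroxidase) rose by 0.34 and 0.24. Of 40 DNA repair genes, H2afx, the histone variant phosphorylated at breaks, rose by 0.62, and Lig4, the ligase of end joining, fell by 2.5. H2afx and Plk2 kept their call in every fit that left out a WT library, and Chac1, Txn1, Gpx1 and Lig4 kept it in 0, 3, 1 and 1 of the 5 (adjusted p up to 0.15, 0.12, 0.24 and 0.21).

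Immune genes were called in both directions. Of 51 interferon-stimulated genes, 2 (3.92%) were called higher and 1 (1.96%) lower, with a median of -0.030. Ifi27, an interferon-induced protein, stood at 96.5, 102 and 104 CPM in normal and 165 and 146 CPM in stressed cells (log2 difference 0.62, SE 0.093, adjusted p = 0.0037), and Ifi47, an interferon-induced GTPase, rose by 0.42, while Ifit3b fell by 1.47. The call of Ifi27 held in every fit that left out a WT library, that of Ifi47 was lost without stressed A (adjusted p = 0.058) and that of Ifit3b was lost in all 5 (up to 0.17). Isg15 and Irf7 differed by 0.10 and -0.03. B2m, the light chain of MHC class I, stood at 1636, 1679 and 1721 CPM in normal and 2078 and 2273 CPM in stressed cells (log2 difference 0.37, SE 0.04, adjusted p = 0.00046), and H2-K1, a heavy chain, at 2273 CPM in all 3 normal and 3112 CPM in both stressed libraries, again tied values (difference 0.45). Both rose and kept their call in every fit that left out a WT library. The other 17 members of the MHC class I list were not called, H2-D1 among them (0.18, adjusted p = 0.052). H2-Ab1, of MHC class II, stood at 60.7, 57.1 and 61.6 CPM in normal and 91.5 and 87.5 CPM in stressed cells (log2 difference 0.58, SE 0.10, adjusted p = 0.01), lost without stressed A (adjusted p = 0.076). Nfkb1, a subunit of NF-kB, rose by 0.47 and Traf1, one of its feedback targets, fell by 0.93, and Jak1, a kinase of cytokine receptors, fell by 0.28. These 3 calls held in 3, 1 and 2 of the 5 fits (adjusted p up to 0.078, 0.11 and 0.091).

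Genes of other blood lineages were called in small numbers. Plac8, expressed in myeloid progenitors, stood at 84.1, 78.2 and 72.4 CPM in normal and 151 and 135 CPM in stressed cells (log2 difference 0.87, SE 0.10, adjusted p = 0.00063). Nkg7, a granule protein of cytotoxic cells, stood at 56.3, 52.2 and 57.9 CPM in normal and 118 and 109.6 CPM in stressed cells (log2 difference 1.03, SE 0.10, adjusted p = 0.00025). Both genes rose with no overlap of groups and kept their call in every fit that left out a WT library. They were the members called higher in their lists of 22 granulocyte and monocyte and 6 T and NK cell genes. Granulocyte and monocyte genes summed to 758.5 to 855.9 CPM in the normal and 893.6 to 953.5 CPM in the stressed libraries. T and NK cell genes summed to 119.5 to 123.3 CPM and 169.2 to 179.7 CPM, but the median difference of the 6 was -0.65. Klrb1c, Cd247 and Cd4 stood lower in both stressed libraries than in any normal one, none of them called: Klrb1c at 4.88, 6.54 and 6.26 CPM in normal and 3.86 and 0.907 CPM in stressed cells, Cd247 at 2.68, 4.68 and 1.82 CPM in normal and 0.97 and 1.27 CPM in stressed cells and Cd4 at 4.8, 2.54 and 2.82 CPM in normal and 1.5 and 0 CPM in stressed cells. Ltb, a lymphotoxin chain, fell by 0.50, a call lost without stressed A (adjusted p = 0.076). Of 24 erythroid genes 3 (12.5%) were called lower and none higher: Car1, an early erythroid carbonic anhydrase, stood at 124, 118 and 141 CPM in normal and 57.2 and 51.6 CPM in stressed cells (log2 difference -1.23, SE 0.10, adjusted p = 6.2e-05), and the globins Hbb-bt and Hba-a1 were low in all libraries (11.8, 12.1 and 13.9 CPM against 5.72 and 5.58 CPM, and 5.23, 4 and 3.8 CPM against 1.08 and 0.703 CPM). The call of Car1 held in all 5 fits that left out a WT library, those of the globins in 2 and 1. No gene was called among 8 B and plasma cell, 16 macrophage and dendritic cell and 10 stromal and endothelial genes tested. Of all genes 3.55% were called, and lists of this size may hold no called gene at that share. Il7r, Pou2af1, Igha, Ighg2b, Cma1, Mcpt4, Tpsb2 and Fcnb were at 0 in all 5 libraries.

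RNA-handling genes shifted by small amounts. Of 41 splicing factors 3 (7.32%) were called higher and 5 (12.2%) lower, Srsf5 falling by 0.25 and Hnrnpa2b1 rising by 0.26, the 2 that kept the call in every fit that left out a WT library. Of 36 translation factors 2 rose and 2 fell; Eef1a1, the elongation factor, was at 3112 CPM in all normal and 4492 CPM in both stressed libraries, tied values that understate its error (difference 0.53). Malat1, a nuclear noncoding RNA, stood at 687, 725 and 700.4 CPM in normal and 447 and 494 CPM in stressed cells (log2 difference -0.58, SE 0.059, adjusted p = 0.00028). Gm26917 and Rn18s-rs5, whose sequences overlap ribosomal RNA, were lower by 0.92 and 0.45, and Actb was higher by 0.49. Xist, the RNA of the silent X chromosome, stood at 131, 145 and 136 CPM in normal and 73.2 and 55.9 CPM in stressed cells (log2 difference -1.1, SE 0.14, adjusted p = 0.0016). The Y-linked genes Ddx3y, Eif2s3y, Uty and Kdm5d had reads in every library as well, Ddx3y at 28.3, 29.4 and 43.1 CPM in normal and 51.5 and 58.5 CPM in stressed cells and Kdm5d at 22.7, 33.1 and 26.6 CPM in normal and 39.8 and 59 CPM in stressed cells. Both stressed values were below all normal ones for Xist and above all normal ones for the 4 Y-linked genes, of which Kdm5d was called (log2 difference 0.84, SE 0.20, adjusted p = 0.041, a call kept in 2 of the 5 fits that left out a WT library). Between the KO-labelled groups Xist differed by 0.0028. The part of the mix of male and female cells in other results was not tested.

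The largest rises by the naming rule, apart from genes above, were of low to moderate level. Clec4e (Mincle), a C-type lectin receptor of myeloid cells, stood at 5.67, 1.72 and 5.07 CPM in normal and 20.4 and 19.5 CPM in stressed cells (log2 difference 2.44, SE 0.44, adjusted p = 0.01). Apol9b, Arl11, Pls1, Sapcd2, Il18rap and Pde10a rose by 2.44, 2.12, 1.63, 1.62, 1.61 and 1.6. Il18rap, a chain of the IL-18 receptor, stood at 11.7, 13.7 and 8.44 CPM in normal and 40.9 and 27.7 CPM in stressed cells. Of these 7 genes only Sapcd2 and Pde10a kept the call in all 5 fits that left out a WT library (adjusted p up to 0.071 for Clec4e, 0.12 for Apol9b, 0.097 for Arl11, 0.17 for Pls1 and 0.23 for Il18rap). The larger falls of genes at 0 in both stressed libraries are given further on. Among the others, the largest falls were mostly of genes with no read in 1 stressed library, so their levels are given in place of fold changes. Dll4, a Notch ligand, went from 4.96, 6.05 and 9.54 CPM to 0.128 and 1.1 CPM, and Cyp26b1, which degrades retinoic acid, from 5.44, 10.4 and 6.97 CPM to 0 and 1.25 CPM. Veph1, Pgap1, Rimbp3, Tnfrsf25, Card10, Fxyd1, Mettl24 and Cfap57 were also among them, none above 7.62 CPM in a normal library, as was Meg3. Apart from Dll4, Cyp26b1 and Card10, these genes had passed the filter through the normal group alone, which fixes their direction. Dll4 and Cyp26b1 each kept the call in 1 of the 5 fits that left out a WT library (adjusted p up to 0.19 and 0.11).

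Among genes with reads in all WT libraries, a few chosen after their values were seen showed the clearest falls. Tns2 (tensin 2), a protein of focal adhesions, stood at 95, 68.8 and 73.6 CPM in normal and 15 and 15.8 CPM in stressed cells (log2 difference -2.35, SE 0.18, adjusted p = 3e-05). Igf2bp2, a protein that binds Igf2 and other messages, stood at 37.8, 38.2 and 39.3 CPM in normal and 7.85 and 4.54 CPM in stressed cells (log2 difference -2.69, SE 0.27, adjusted p = 0.00028). The differences amounted to 5.09-fold and 6.45-fold. Ahnak, a giant scaffold protein, stood at 55.3, 54.6 and 59.8 CPM in normal and 9.64 and 16.4 CPM in stressed cells (log2 difference -2.17, SE 0.24, adjusted p = 0.00048), and Ephb4, an ephrin receptor, at 19.2, 25.5 and 20.8 CPM in normal and 4.79 and 5.89 CPM in stressed cells (log2 difference -2.03, SE 0.21, adjusted p = 0.00028). All 4 kept their call in every fit that left out a WT library. Itga9, an integrin chain, stood at 22.1, 18.5 and 20.9 CPM in normal and 7.34 and 7.51 CPM in stressed cells (log2 difference -1.46, SE 0.27, adjusted p = 0.011), and Cbx6, a Polycomb subunit, at 179, 183 and 174 CPM in normal and 115 and 113 CPM in stressed cells (log2 difference -0.65, SE 0.099, adjusted p = 0.0037); the call of Itga9 held in 2 of the 5 fits (adjusted p up to 0.068). In total 16 called genes had 0 reads in both stressed libraries and 1 had 0 reads in all normal ones. Glis3 stood at 8.5, 3.28 and 7.48 CPM, Tcaf2 at 6.51, 1.11 and 5.03 CPM and Npnt (nephronectin, a ligand of the extracellular matrix) at 1.69, 5.8 and 3.54 CPM in the normal libraries against 0 in stressed A and B, and had passed the filter through the normal group alone. Bpifc, which had passed through the stressed group alone, had 0 reads in the normal libraries and stood at 1.15 and 4.89 CPM in the stressed ones.

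The same contrast in the KO-labelled libraries uses none of the WT libraries, though both come from 1 fit with a common estimate of spread. There 697 genes (4.85%) were called, 343 higher and 354 lower. Of the 510 genes called in WT, 464 (91.0%) had the same sign in the KO-labelled cells, against 60.3% of all genes tested. A call in the same direction was shared by 263 genes, which is 51.6% of the WT calls and 37.7% of the KO-labelled calls, and 3 genes were called in opposite directions. The median KO-labelled difference was 0.60 over the genes higher in WT and -0.50 over those lower. In the KO-labelled cells the mitosis list had 45 of 48 called higher (2.39% of all genes were; median 1.03), megakaryocyte and platelet genes 16 of 25 (median 0.61), histones 6 of 19 (median 0.74), and G1 and S phase genes 18 of 48 (median 0.36). Of the mitochondrial DNA-encoded genes 8 of 10 were called lower (2.47% of all genes were; median -1.47), and of the imprinted genes 5 of 14. Ribosomal proteins went the other way there, with 16 of 69 called lower, none higher and a median of -0.16. Pf4 and Selp rose by 1.31 and 1.7 in the KO-labelled cells, and Hlf fell by 0.61.

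**Figure D5:**
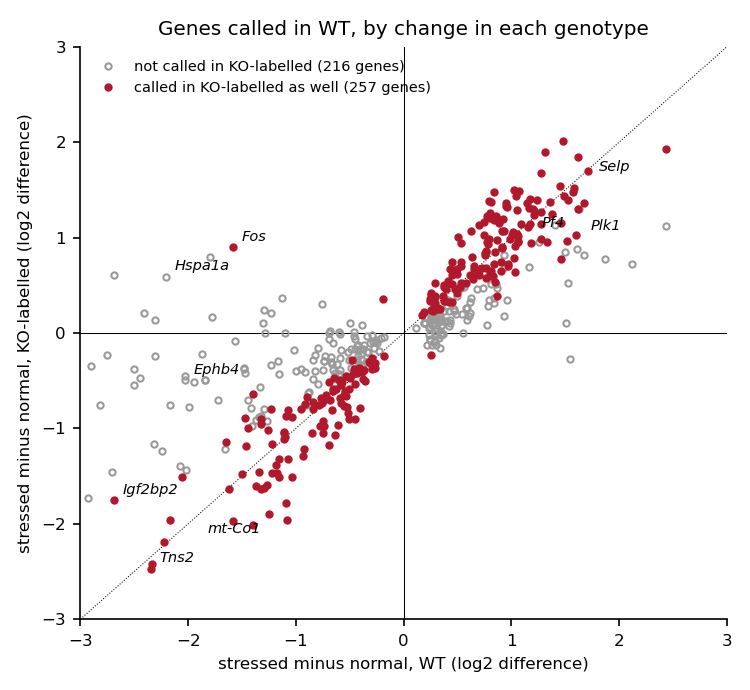
Log2 difference, stressed minus normal, in WT (x axis) against KO-labelled cells (y axis) for 473 of the 510 genes called in WT; 37 genes lie outside the axes, which end at 3 and -3. Filled points (257) were also called in the KO-labelled cells and open points (216) were not; the dotted line marks equal differences. Most points share a sign, and Fos lies in the upper left.

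The change differed between the genotypes by a direct test for 3 genes, 0.0209% of those tested (1333 had an unadjusted p under 0.05). Fos fell by 1.58 in WT and rose by 0.90 in the KO-labelled cells, a difference of -2.49 (SE 0.32, adjusted p = 0.027). Hnrnpu, which encodes an RNA-binding scaffold of the nucleus, fell by 0.19 and rose by 0.35, a difference of -0.54 (SE 0.060, adjusted p = 0.011). mt-Co1 fell in both, by 1.25 and 1.90 (adjusted p = 0.00013 for the difference of 0.66, with tied values). For Hspa1a, which fell by 2.21 in WT and differed by 0.59 in the KO-labelled cells, and for Xist and Glis3, the difference between genotypes was not called.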

How the data were processed

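RNA from sorted HSCs was sequenced in 10 libraries of 4 groups, and 5 WT libraries (3 normal, 2 stressed) enter the comparison. Bowtie2 and featureCounts with the mouse build mm10 are named in the submitters' processing notes, without versions. The values the authors deposited are log2 CPM per gene, with limma voom given by the table's name alone; the strandedness of the counting is not given in the sources used here. All libraries share nearly 1 distribution of values, so the deposited values had been quantile normalized, which ties abundant genes of equal rank. The lowest value, -5.90, stands for 0 reads. The steps between tied low values, from 10 to 100 counts, gave each library's depth.

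The 4 group means over the 10 libraries were estimated in a common model (limma 3.58.1, R 4.3.3, empirical Bayes with a mean trend, 6 residual degrees of freedom), and p-values were adjusted by Benjamini-Hochberg over the 14361 genes kept. No pseudocount was added. A single gene tested alone by exact permutation of 2 against 3 libraries could not fall below p = 0.20, so no such test is given. The members and the 50 lists were chosen with earlier results of these data known. Genes named were Id1, up to 12 named genes of largest rise and fall among called genes whose groups do not overlap, up to 4 genes at 0 in a group, up to 4 members per list of smallest p, and the 6 called genes of smallest interaction p; some genes that this rule names are not reported here, and others are said to be chosen after their values were seen, or stand beside a list's calls to show members that were not called.

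The same-letter libraries of different groups did not deviate together (correlations of -0.029 to 0.036), so replicate letters were not treated as pairs. Promoter windows came from RefSeq (GRCm38.p6), gene positions and exon lengths from GENCODE vM21, which held lengths for 14332 of the 14361 genes. The fit was tested on simulated data for this comparison: of 200 genes changed among 14361, 50 each with a log2 change of 0.5, 1, 2 and 4, the recovered shares were 12%, 52%, 72% and 70%, with 5 false among 108 calls. Alternatives changed the variance model, filter, pseudocount, scaling, weights, threshold and libraries used.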

Additional observations from a re-analysis of the deposited data

Results flagged for a closer look

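For 3 genes the change from normal to stressed cells differed between WT and KO-labelled libraries by a test of the difference itself (limma, Benjamini-Hochberg over 14361 genes). The change of Fos in WT minus its change in the KO-labelled libraries was -2.49 (SE 0.32, adjusted p = 0.027): mean log2 CPM went from 4.78 to 3.2 in WT and from 3.01 to 3.91 in the KO-labelled cells, so that the normal groups differed more than the stressed ones. For Hnrnpu the value was -0.542 (SE 0.060, adjusted p = 0.011) and the change was -0.19 in WT and 0.35 in the KO-labelled cells. For mt-Co1 it was 0.657 (SE 0.045, adjusted p = 0.00013), with means of 11.29 and 10.04 in WT and 11.85 and 9.95 in the KO-labelled cells; its values include ties from quantile normalization, which understate the error. The number of such genes was 25 without WT stressed B and 12 without the filter on low values.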

How the results depend on the processing

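With 2 stressed libraries the limit is replication: leaving out 1 WT library brought the calls from 510 to between 280 and 347 (99 to 163 higher, 132 to 240 lower), with the lone sample, where stressed A or B was left out, assumed to vary like the other groups. In those 5 fits the mitosis list had 27 to 38 genes called higher, histones 4 to 6, megakaryocyte and platelet genes 6 to 9, the mitochondrial DNA-encoded list 8 called lower and the imprinted list 7 to 8, interaction calls ranged from 1 to 25, the last without WT stressed B, and KO-labelled calls from 549 to 686. Leaving out each KO-labelled library instead (added after the data were seen) gave 445 to 640 WT calls, 191 to 297 of them higher and 254 to 343 lower, 295 to 608 KO-labelled calls, 2 to 6 interaction calls, 38 to 42 mitosis and 11 to 13 megakaryocyte and platelet genes called higher. Without a mean trend in the variance, 264 genes were called (131 higher, 133 lower), 337 in the KO-labelled cells, and 6 megakaryocyte and platelet genes. With a replicate block on the letters, a pairing that the data did not bear out, 326 were called (155 higher, 171 lower), 456 in the KO-labelled cells, and 5 histones. At an adjusted p under 0.01 there were 194 calls (101 higher, 93 lower), 281 in the KO-labelled cells, 3 histones, 6 megakaryocyte and platelet genes and 1 interaction. Asking for a difference of at least 1 as well left 193 (61 higher, 132 lower), 216 in the KO-labelled cells, 20 mitosis genes, 5 histones, 2 megakaryocyte and platelet genes and 1 interaction. The interaction gave 12 calls with no filter and 6 with the filter at a value of 2. Among genes with reads in all 5 WT libraries, where fewer members can be tested, 4 imprinted genes were called. In the main fit, 4 of the 8 imprinted genes that had not passed the filter through 1 group alone were called lower. The other settings (robust variance, filter over all 10 libraries, pseudocount of 1 CPM, the scalings, library weights, only the 5 WT libraries and the length trend) gave 459 to 568 WT calls. Of 129 genes followed through all settings, 1 turned: the difference of Id1, never called, was -0.60 without WT stressed B and up to 1.17 in the other fits that left out a WT library. Where a count moved, the cause was not tested beyond what the setting itself removes. Of the genes called lower, 27 had 0 reads in at least 1 stressed library, and the cause of these zeros was not tested.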

Other observations

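Signalling lists that the comparison above does not describe held 0 or 1 call each. Of 22 Notch and Wnt genes, 19 differences were below 0, but only Fzd4, a Wnt receptor, was called, at 20.4, 11.1 and 15.7 CPM in normal and 1 and 4.15 CPM in stressed cells (limma adjusted p = 0.042, a call kept in 1 of the 5 fits that left out a WT library). Notch1 stood at 66, 53.3 and 45.3 CPM in normal and 25.4 and 36.3 CPM in stressed cells (log2 difference -0.84, SE 0.21, adjusted p = 0.052) and Fzd8 at 20.8, 17.8 and 16.2 CPM in normal and 10.2 and 8.66 CPM in stressed cells (log2 difference -0.95, SE 0.24, adjusted p = 0.052). In both the groups did not overlap and the threshold was missed. Of 24 BMP and TGF-beta genes 1 was called, Eng, and the median difference was -0.15. Among the Id and E proteins, the family of Id1 and its partners, Id2, Tcf3, Tcf4 and Tcf12 differed by -0.10, -0.032, 0.10 and -0.035 and none of the 5 tested was called. The median was -0.091 over 12 Hox genes, with none called, and -0.040 over 29 DNA methylation and Polycomb genes, where Cbx6 was the 1 gene called.

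Protein turnover and survival genes were near the middle of the distribution or slightly above it. Of 31 proteasome genes, 30 differences were above 0 and 1 was called (Psmc1, 0.26), with a median of 0.19, which was 0.15 with the trend over gene length removed. The median was 0.014 over 38 autophagy and lysosome genes, of which Gaa, the lysosomal alpha-glucosidase, and Gabarapl1 fell by 0.42 and 0.29. It was 0.031 over 35 genes of mitochondrial import and biogenesis and 0.20 over 13 BCL2 family genes, with none called in either list. Of 46 nucleolar and MYC target genes 2 rose and 2 fell: Ptma (prothymosin alpha) stood at 899, 921 and 946 CPM in normal and 1161 and 1144 CPM in stressed cells (log2 difference 0.32, SE 0.034, adjusted p = 0.00036), and Cad, which starts pyrimidine synthesis, at 372, 348 and 291 CPM in normal and 234 and 207 CPM in stressed cells (log2 difference -0.60, SE 0.10, adjusted p = 0.0067). Ptma kept its call in every fit that left out a WT library and Cad lost it without stressed B (adjusted p = 0.066).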
